A study of Mus musculus with 9 samples.

Results

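The genes described here are 5 that act in the making and the later life of the inhibitory interneurons of the mouse cerebellum, namely the transcription factor genes Pax2, Tfap2a and Tfap2b, the receptor gene Kit and the gene of its ligand, Kitl. They were chosen by symbol, and each had 1 probe set annotated to that gene alone, so they are 5 of the 19938 genes measured in this way. RNA was measured in 9 samples of mice at postnatal day 13 on Affymetrix Mouse Gene 1.0 ST arrays, which summarise probes spread along a gene. The 3 groups of 3 arrays were medulloblastoma, a tumour of the cerebellum, from mice labelled Ptch1KO, cerebellum from mice labelled SufuKO, and wildtype cerebellum. Ptch1 is the receptor that holds Hedgehog signalling in check and Sufu an inhibitor of the Gli factors at the end of that pathway. The labels name no strain, no Cre driver and no part of the gene that was deleted. Nor do they tie the arrays of a group to different animals, so part of the spread behind each p-value may be technical. For single genes the spread within groups was pooled over all 9 arrays and moderated across genes.

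As background, cerebellar inhibitory neurons arise from the ventricular zone, where the factor Ptf1a is needed for the lineage. Precursors of the interneurons switch on Pax2, a paired-box transcription factor, and carry it while they migrate through the white matter and mature into Golgi, basket and stellate cells. Tfap2a and Tfap2b encode AP-2 alpha and AP-2 beta, factors that bind DNA as dimers and are known in the mouse retina to act downstream of Ptf1a in inhibitory neurons. Kit is a receptor tyrosine kinase carried by the basket and stellate cells of the molecular layer, and its ligand, stem cell factor, the product of Kitl, is made by Purkinje cells.

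Promoter sequence is shown for the gene that differed most between the groups, Tfap2b, for the receptor, Kit, and for the Pax2 window with AP-2 matches. The sequences are from RefSeq on build GRCm38.p6 and run 5′ to 3′ on the plus strand, from 250 bases before to 50 bases after a transcript start, and positions are counted from 0 at the start. Capitals mark the AP-2 motif GCCNNNGGC, searched on both strands.
Tfap2b, chr1:19211804-19212103: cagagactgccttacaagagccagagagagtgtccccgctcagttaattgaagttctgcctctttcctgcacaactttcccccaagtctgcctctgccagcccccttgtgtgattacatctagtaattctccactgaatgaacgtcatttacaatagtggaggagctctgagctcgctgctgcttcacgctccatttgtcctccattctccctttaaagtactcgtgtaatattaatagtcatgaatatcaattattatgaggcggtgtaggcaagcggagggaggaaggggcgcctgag
Kit, chr5:75574737-75575036: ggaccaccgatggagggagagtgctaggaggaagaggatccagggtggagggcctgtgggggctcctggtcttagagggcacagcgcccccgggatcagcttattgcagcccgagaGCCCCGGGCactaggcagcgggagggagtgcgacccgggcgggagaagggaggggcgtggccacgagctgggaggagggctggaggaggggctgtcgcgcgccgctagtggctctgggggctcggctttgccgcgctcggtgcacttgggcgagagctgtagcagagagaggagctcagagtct
Pax2, chr19:44755502-44755801: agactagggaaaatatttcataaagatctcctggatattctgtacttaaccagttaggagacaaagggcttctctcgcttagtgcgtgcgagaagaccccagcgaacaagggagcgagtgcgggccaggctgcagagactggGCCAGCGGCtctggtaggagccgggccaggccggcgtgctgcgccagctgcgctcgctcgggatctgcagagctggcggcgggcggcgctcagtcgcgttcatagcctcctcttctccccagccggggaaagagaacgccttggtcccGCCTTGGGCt

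The AP-2 motif was found in 16.6% of 32817 RefSeq promoter windows of this length. The Kit window held 1 match, GCCCCGGGC, at positions -134 to -126. The Pax2 window held 2 matches, GCCAGCGGC at -108 to -100 and GCCTTGGGC at 40 to 48. The Tfap2b window held 0, as did the other 2 windows of Pax2, both windows of Tfap2a and the Kitl window. The Gli motif TGGGTGGTC, found in 0.253% of all windows, was in none of these windows, which says only that these letters are not there. The E-box CANNTG, found in 72.3% of all windows, was in each of the 3 windows shown and in the Kitl window. It was also in another Pax2 window, with 2 matches, and in another Kit window that overlaps the one shown. The Rbpj motif TGGGAA, found in 25.6% of all windows, was in another Pax2 window, in a Tfap2a window and in the Kitl window. A match is a description of the letters and not a site of binding.

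All 5 genes lay above their array's 25th percentile on all 9 arrays and so entered the test, as did 16323 genes in all. The values were deposited on a log2 scale without detection calls, and array medians lay between 6.72 and 6.79, so the differences of dim genes may be compressed. Sufu read 8.07, 8.14 and 7.99 in SufuKO cerebellum, against 9.03, 8.82 and 9.02 in wildtype, and was lower on every SufuKO array (log2 difference -0.89, limma adjusted p = 9.70e-06). Ptch1 was higher in the tumours than in wildtype, and since the deleted part of the gene is not given, its probe set does not check that label. Across genes, the mean correlation with wildtype was 0.915 to 0.943 for the tumours, with replicate 3 the nearest, and 0.973 to 0.977 for SufuKO. High Xist was seen on 1 of 3 tumour arrays, 1 of 3 SufuKO arrays and 3 of 3 wildtype arrays. On the high-Xist tumour array each of the 5 genes lay below the lowest wildtype array, at -2.01 for Tfap2b, -0.98 for Kit, -0.86 for Tfap2a, -0.62 for Kitl and -0.39 for Pax2 (log2 difference from the wildtype mean). On the high-Xist SufuKO array these were -0.94, -0.70, -0.47, -0.80 and -0.16, also each below the lowest wildtype array.

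The comparisons ask how RNA of these 5 genes stands in the young cerebellum without Sufu and in tumours from mice labelled Ptch1KO. The Hedgehog targets Gli1 and Ptch1 differed from wildtype by 1.81 and 1.02 in the tumours (limma adjusted p = 1.76e-07 and 3.69e-07), against -0.12 and -0.065 in SufuKO, where neither passed the test (adjusted p = 0.537 and 0.607). In the Ptch1KO tumours all 5 genes fell relative to wildtype, where 24.7% of all tested genes fell, and in no case did the groups overlap, as for 56.6% of all tested genes. In SufuKO cerebellum 4 of 5 fell, where 12.4% of all genes fell, and the same 4 did not overlap with wildtype, as for 41% of all genes. In the tumours relative to SufuKO 4 of 5 fell, against 17.5% of all genes, with no overlap for these 4, as for 39.7% of all genes. With array weights in the fit, 22.7% of all genes were lower in SufuKO against wildtype and 27.2% in the tumours against SufuKO. Genes called in either direction made up 46.8%, 25.4% and 29.7% of those tested in these 3 comparisons, and genes called higher 22.1%, 13% and 12.2%. The median log2 difference of the 5 genes was -0.87 in the tumours and -0.73 in SufuKO, both minus wildtype, beside -0.013 and -0.006 over all genes. Between the mutants it was -0.36, beside -0.008 over all genes. The 2 comparisons with wildtype share the same wildtype arrays. In bulk tissue, fewer cells of a type and less RNA per cell cannot be told apart.

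**Figure D1:**
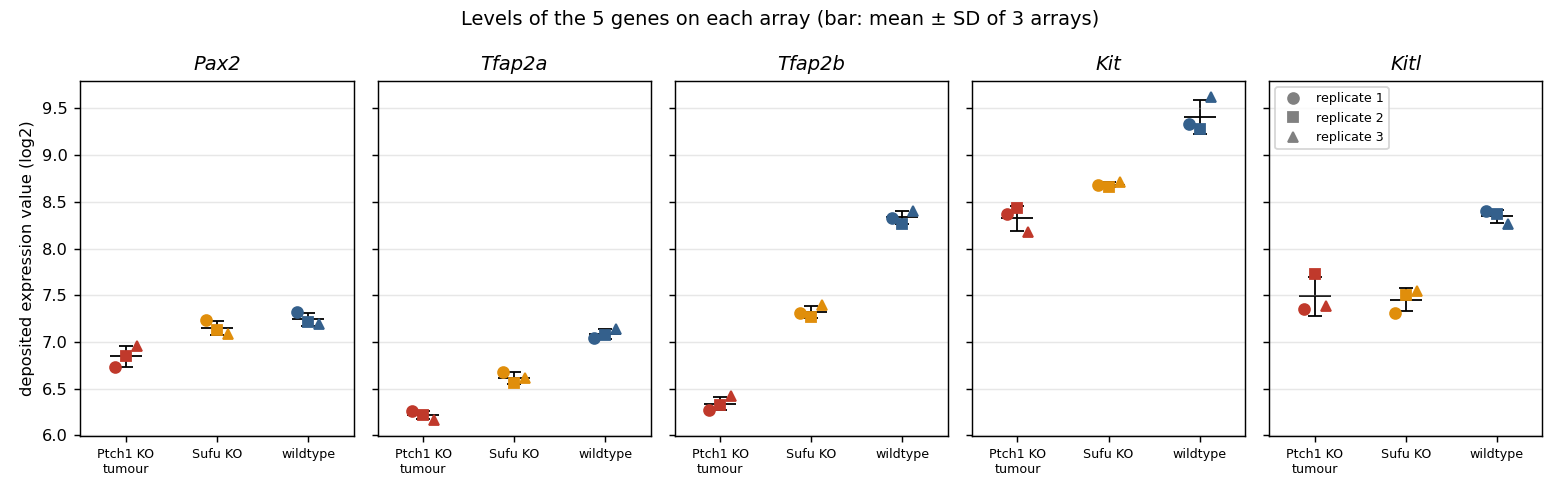
Deposited log2 expression value of each of the 5 genes on each array, with Ptch1KO tumours, SufuKO cerebellum and wildtype from left to right, points for replicates 1, 2 and 3, and bars for the mean ± SD of 3 arrays. Tfap2b falls into 3 separate bands near 6.34, 7.32 and 8.33, while Kitl overlaps between the mutants and Pax2 between SufuKO and wildtype.

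Pax2, the marker of the migrating interneuron precursors, read 6.73, 6.85 and 6.95 in the tumours, 7.23, 7.12 and 7.09 in SufuKO cerebellum and 7.32, 7.21 and 7.19 in wildtype (log2 values). All 3 tumour arrays lay below every other array, while the SufuKO and wildtype arrays overlapped. Its mean was 6.84 ± 0.11 in the tumours, 7.15 ± 0.07 in SufuKO and 7.24 ± 0.07 in wildtype (SD, n = 3 each). It was 1.32-fold lower in the tumours than in wildtype (log2 difference -0.40, SE 0.08, limma adjusted p = 0.000900). It was 1.23-fold lower in the tumours than in SufuKO (log2 difference -0.30, SE 0.08, limma adjusted p = 0.00995), a call lost when tumour replicate 1 was left out (-0.24, limma adjusted p = 0.0521). In SufuKO against wildtype it did not pass the test (log2 difference -0.10, 95% interval -0.26 to 0.07, limma adjusted p = 0.432). Among the 5 genes Pax2 had the smallest difference from wildtype in both mutants, and in SufuKO it ranked 4787 from the lowest of the 16323 tested genes.

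Tfap2a, which encodes AP-2 alpha, read 6.26, 6.22 and 6.17 in the tumours, 6.68, 6.56 and 6.61 in SufuKO cerebellum and 7.04, 7.07 and 7.14 in wildtype. The 3 groups did not overlap in any pairing, and the order was tumour, SufuKO, wildtype from low to high. Means were 6.22 ± 0.04 in the tumours, 6.62 ± 0.06 in SufuKO and 7.08 ± 0.05 in wildtype (SD, n = 3 each). Tfap2a was 1.82-fold lower in the tumours than in wildtype (log2 difference -0.87, SE 0.06, limma adjusted p = 4.15e-07) and 1.38-fold lower in SufuKO than in wildtype (-0.47, SE 0.06, adjusted p = 0.000288). The tumours were also 1.32-fold below SufuKO (log2 difference -0.40, SE 0.06, limma adjusted p = 0.000569).

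Tfap2b, which encodes AP-2 beta, changed the most of the 5. It read 6.27, 6.33 and 6.42 in the tumours, 7.30, 7.27 and 7.40 in SufuKO cerebellum and 8.33, 8.27 and 8.40 in wildtype. Each group kept within a range far narrower than the gaps between groups, and no arrays overlapped. Means were 6.34 ± 0.07 in the tumours, 7.32 ± 0.07 in SufuKO and 8.33 ± 0.07 in wildtype (SD, n = 3 each). The difference from wildtype was 3.98-fold in the tumours (log2 difference -1.99, 95% interval -2.15 to -1.84, limma adjusted p = 3.88e-09) and 2.01-fold in SufuKO (-1.01, 95% interval -1.16 to -0.86, adjusted p = 3.03e-06). The tumours lay 1.98-fold below SufuKO (log2 difference -0.98, SE 0.07, limma adjusted p = 3.03e-06). Genes called and lower by at least 1 log2 unit made up 4.02% of tested genes in the tumours against wildtype, 0.221% in SufuKO against wildtype and 1.13% between the mutants. By log2 difference Tfap2b ranked 53 from the lowest in the tumours, 36 in SufuKO, both against wildtype, and 194 between the mutants, of 16323 genes.

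The AP-2 genes did not fall in step. Set against Tfap2a on the same array, Tfap2b had a log2 ratio of 0.02, 0.11 and 0.25 in the tumours, 0.62, 0.71 and 0.79 in SufuKO and 1.29, 1.19 and 1.26 in wildtype, a quantity added after the values were seen. The groups did not overlap, and the ratio was lower by 1.13 log2 units in the tumours than in wildtype (difference -1.13), by 0.54 in SufuKO than in wildtype (difference -0.54) and by 0.58 in the tumours than in SufuKO (difference -0.58). Each exact 2-sided permutation test gave p = 0.1, the smallest that 3 against 3 arrays allow. Such a ratio shows unequal change of the deposited values and not which gene changed. Tfap2a lay above the array median on 3 of the 9 arrays and Tfap2b on 6. The tumour means of both, 6.22 and 6.34, were below the array medians of 6.72 to 6.79. The part of compression of dim values in this ratio was not tested.

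Kit, the receptor of the molecular layer interneurons, read 8.37, 8.43 and 8.17 in the tumours, 8.68, 8.66 and 8.71 in SufuKO cerebellum and 9.33, 9.28 and 9.62 in wildtype. The SufuKO arrays lay close together between the other groups, and no groups overlapped. Means were 8.33 ± 0.14 in the tumours, 8.68 ± 0.03 in SufuKO and 9.41 ± 0.18 in wildtype (SD, n = 3 each). Kit was 2.12-fold lower in the tumours than in wildtype (log2 difference -1.09, SE 0.10, limma adjusted p = 1.50e-06) and 1.65-fold lower in SufuKO than in wildtype (-0.73, SE 0.10, adjusted p = 0.000200). The step between the mutants was smaller, 1.28-fold lower in the tumours than in SufuKO (log2 difference -0.36, 95% interval -0.57 to -0.15, limma adjusted p = 0.0128).

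Kitl, the gene of the ligand, read 7.35, 7.72 and 7.38 in the tumours, 7.31, 7.50 and 7.54 in SufuKO cerebellum and 8.40, 8.37 and 8.27 in wildtype. Every mutant array lay below every wildtype array, and the tumour and SufuKO arrays overlapped. Means were 7.49 ± 0.21 in the tumours, 7.45 ± 0.12 in SufuKO and 8.34 ± 0.07 in wildtype (SD, n = 3 each). Kitl was 1.81-fold lower in the tumours than in wildtype (log2 difference -0.86, SE 0.10, limma adjusted p = 1.64e-05) and 1.86-fold lower in SufuKO than in wildtype (-0.89, SE 0.10, adjusted p = 6.60e-05). Between the mutants it did not pass the test (log2 difference 0.04, 95% interval -0.18 to 0.25, limma adjusted p = 0.859), and leaving out SufuKO replicate 1 or tumour replicate 2 turned its sign (-0.034 and -0.083). In SufuKO against wildtype Kitl ranked 71 from the lowest difference of 16323 genes, and in the tumours against wildtype 883. The log2 ratio of Kit to Kitl on the same array, added after the values were seen, differed by -0.23 in the tumours and 0.17 in SufuKO relative to wildtype (exact 2-sided permutation p = 0.3 for each, groups overlapping) and by -0.39 in the tumours relative to SufuKO (exact p = 0.1, no overlap).

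**Figure D2:**
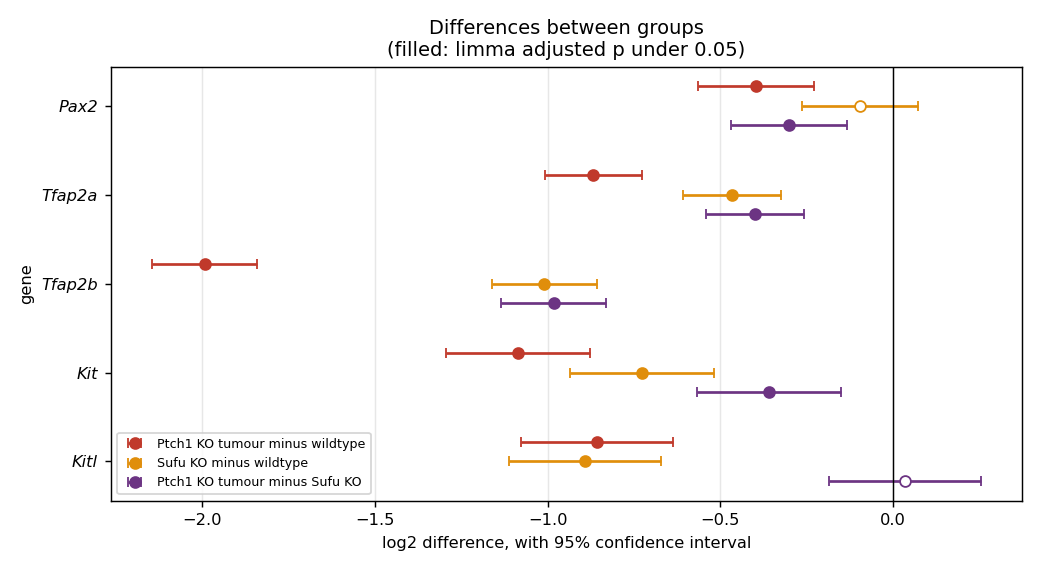
Log2 difference with its 95% confidence interval for each of the 5 genes in tumours minus wildtype, SufuKO minus wildtype and tumours minus SufuKO, with filled points where the limma adjusted p was under 0.05. Tfap2b has the lowest values at -1.99 and -1.01 against wildtype, and the open points are Pax2 in SufuKO and Kitl between the mutants.

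Most of the other transcription factors of the inhibitory lineage did not pass the test. Of 15 tested factors upstream of Pax2 or beside it, 10 were not called in the tumours against wildtype, 3 rose and 2 fell. Among all genes 22.1% rose and 24.7% fell there. In SufuKO against wildtype 12 were not called, 2 rose and 1 fell, beside 13% and 12.4% of all genes. The medians were 0.05 and -0.01. Between the mutants 11 were not called, and 2 were higher and 2 lower in the tumours. Of all genes 12.2% and 17.5% were, and the median of the list was 0.08. Lhx1, a LIM homeodomain factor of young Purkinje cells, rose 2.10-fold in the tumours and 1.68-fold in SufuKO (log2 difference 1.07 and 0.75, limma adjusted p = 7.52e-07 and 7.65e-05). Its relative Lhx5 fell in the tumours and in SufuKO (-0.88 and -0.44, adjusted p = 2.99e-06 and 0.00234), with tumour arrays at 5.60, 5.80 and 5.66, SufuKO arrays at 6.18, 6.08 and 6.12 and wildtype arrays at 6.67, 6.63 and 6.40. Prdm8, a zinc finger repressor, rose in the tumours and in SufuKO (0.72 and 0.87). Olig2, a bHLH factor of ventricular zone progenitors that is not confined to this lineage, rose in the tumours (0.51). Skor2, a Purkinje cell corepressor, fell in the tumours (-0.39). Ptf1a, which stands at the head of the lineage, did not pass the test in any of the 3 comparisons. In SufuKO its log2 difference was 0.07 (limma adjusted p = 0.530, groups overlapping), and it was called there with array weights (0.15, adjusted p = 0.0346). Its means were dim, at 5.62 in the tumours, 5.68 in SufuKO and 5.61 in wildtype. The 25th percentiles of the arrays lay close to these, at 5.32 to 5.41. Dlx5 and Gsx2, not called in any comparison, were dim as well, with wildtype means of 5.36 and 5.43. All 10 factors not called in the tumours against wildtype had wildtype means below the array medians of 6.72 to 6.79, the highest being Neurog2 at 6.62. Differences of such dim genes may be compressed, so the missing calls do not show that these factors held steady. Lhx5 and Skor2, which fell, were also dim in the tumours, with means of 5.69 and 5.95.

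Among the 8 other Pax genes 1 rose and 1 fell in each mutant against wildtype, and between the mutants 2 were lower in the tumours. In each comparison 6 were not called. Of all genes 22.1% rose and 24.7% fell in the tumours against wildtype, and 13% rose and 12.4% fell in SufuKO. Between the mutants 17.5% of all genes were lower in the tumours. Pax6, a factor of granule cells and not of interneurons, rose in the tumours and in SufuKO (log2 difference 0.42 and 0.64, limma adjusted p = 0.000530 and 9.34e-05). Pax3 fell in the tumours, where its arrays read 6.50, 6.67 and 6.84, against 7.55, 7.30 and 7.41 in wildtype (log2 difference -0.75, limma adjusted p = 2.31e-05). In SufuKO its fall was small (-0.28, adjusted p = 0.0449) and was lost under several alternatives, with adjusted p up to 0.172. Pax7 did not pass the test in the tumours against wildtype (-0.16, adjusted p = 0.186). The closest paralogs of Pax2 did not pass the test in the tumours against wildtype, with log2 differences of -0.13 for Pax5 and -0.03 for Pax8 (limma adjusted p = 0.285 and 0.854). Pax8 was dim and left the test when the filter was set at the array median, so its missing call says little.

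Of the AP-2 paralogs, Tfap2c and Tfap2d stayed below the filter, and Tfap2e did not pass the test in the tumours (log2 difference 0.09, limma adjusted p = 0.464). Of the 6 tested AP-2 paralogs and cofactors 2 were higher and 3 lower in the tumours against wildtype, beside 22.1% and 24.7% of all genes. In SufuKO against wildtype 2 were higher and 1 lower, beside 13% and 12.4% of all genes. Between the mutants 1 was higher and 1 lower in the tumours, beside 12.2% and 17.5% of all genes. Kctd15, known as an inhibitor of AP-2 alpha activity, read 7.88, 7.98 and 7.72 in the tumours, 7.47, 7.40 and 7.48 in SufuKO and 6.86, 6.74 and 6.81 in wildtype. Its groups did not overlap, and it lay 2.08-fold above wildtype in the tumours (log2 difference 1.06, limma adjusted p = 2.93e-07) and 1.57-fold in SufuKO (0.65, adjusted p = 8.55e-05). Its paralog Kctd1 was lower in the tumours (-0.25, adjusted p = 0.0272), with overlapping groups and an adjusted p up to 0.108 under the alternatives. Cited2, a coactivator of AP-2 factors, fell in the tumours and in SufuKO (log2 difference -0.62 and -0.30, limma adjusted p = 1.17e-05 and 0.00699). Cited1 rose in both (0.34 and 0.41), and Cited4 fell in the tumours (-0.37, adjusted p = 0.0116, up to 0.0585 under the alternatives).

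Downstream of the receptor, the 24 measured genes of Kit signalling had a median log2 difference of -0.003 in the tumours and 0.001 in SufuKO against wildtype, and 0.001 between the mutants. In the tumours against wildtype 5 rose and 5 fell, beside 22.1% and 24.7% of all genes. In SufuKO against wildtype 2 rose and 4 fell, beside 13% and 12.4% of all genes. In the tumours against SufuKO 4 rose and 2 fell, beside 12.2% and 17.5% of all genes. Plcg1, a phospholipase that binds active receptor tyrosine kinases, rose in the tumours and in SufuKO (0.73 and 0.42, limma adjusted p = 4.36e-06 and 0.00132). Sh2b2, an adaptor that binds Kit, rose in the tumours (0.74, adjusted p = 5.71e-06). The regulatory subunit gene of phosphoinositide 3-kinase, Pik3r1, fell in the tumours and in SufuKO (-0.42 and -0.50), as did Stat5b, a transcription factor activated by the receptor (-0.59 and -0.49), and the adaptor Grb2 (-0.42 and -0.23). The Grb2 difference in SufuKO reached adjusted p = 0.0773 under the alternatives.

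The receptors most like Kit in structure went in both directions. Of the 4 receptors, Pdgfrb and Flt3 fell and Pdgfra rose in both mutants against wildtype, and Csf1r passed the test in neither. Of 9 such receptors and ligands together 2 rose and 2 fell in the tumours against wildtype, beside 22.1% and 24.7% of all genes. In SufuKO against wildtype 1 rose and 3 fell, beside 13% and 12.4% of all genes. Between the mutants 2 were higher and 1 lower in the tumours, beside 12.2% and 17.5% of all genes. Pdgfra, the receptor on oligodendrocyte precursors and Kit's neighbour in the genome, read 10.50, 10.45 and 10.22 in the tumours, 9.14, 9.12 and 9.23 in SufuKO and 8.17, 8.03 and 7.87 in wildtype. It was 5.15-fold higher in the tumours and 2.20-fold higher in SufuKO than in wildtype (log2 difference 2.36 and 1.14, limma adjusted p = 5.26e-09 and 7.12e-06), the opposite direction to Kit. Its ligand Pdgfa rose in the tumours against wildtype (1.16, adjusted p = 4.69e-07). Flt3, a receptor of blood progenitors, fell like Kit, with log2 values of 6.40, 6.37 and 6.17 in the tumours, 6.93, 7.16 and 6.82 in SufuKO and 7.56, 7.69 and 7.66 in wildtype. It fell in the tumours and in SufuKO (-1.32 and -0.66, limma adjusted p = 3.17e-07 and 0.000363). Pdgfrb, the receptor of pericytes, fell less (-0.43 and -0.38, adjusted p = 8.35e-05 and 0.000850).

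Beside the 5 genes stood a broad fall of the genes of mature inhibitory interneurons. Of 17 measured interneuron genes 13 fell and 2 rose in the tumours, 12 fell and 2 rose in SufuKO, both against wildtype, and 12 fell and 0 rose in the tumours against SufuKO. Among all tested genes 24.7% fell and 22.1% rose in the tumours against wildtype, and 12.4% fell and 13% rose in SufuKO. Between the mutants 17.5% were lower and 12.2% higher in the tumours. The interneuron genes had a median log2 difference of -1.15 in the tumours and -0.67 in SufuKO against wildtype, and -0.48 between the mutants. Their summed level (log2 of the sum) was 12.17 to 12.27 in the tumours, 12.70 to 12.81 in SufuKO and 13.08 to 13.15 in wildtype. Gad1 and Gad2, the enzymes that make GABA, differed from wildtype by -1.93 and -1.70 in the tumours and by -0.80 and -0.67 in SufuKO. Slc32a1, the vesicular GABA transporter, differed by -1.24 in the tumours and -0.76 in SufuKO. Pvalb, a calcium-binding protein of basket, stellate and Purkinje cells, had the lowest tumour value, at -2.48 against -1.01 in SufuKO. Erbb4, the neuregulin receptor, went the other way, at 0.56 in the tumours and 0.92 in SufuKO. The part of a change in cell makeup in the values of the 5 genes was not tested.

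**Figure D3:**
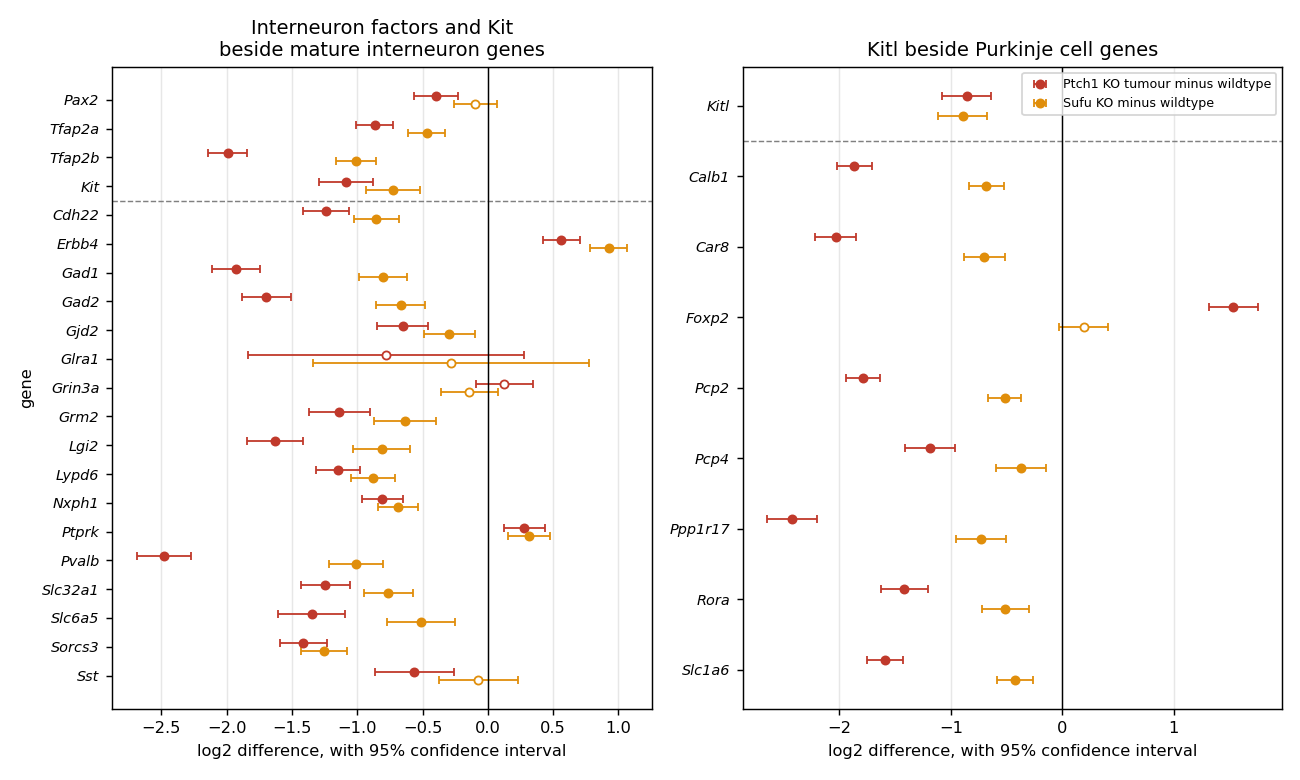
Log2 difference from wildtype, with 95% confidence interval, for Pax2, Tfap2a, Tfap2b and Kit above the mature interneuron genes on the left, and for Kitl above the Purkinje cell genes on the right, in Ptch1KO tumours and SufuKO cerebellum, with filled points where the limma adjusted p was under 0.05. The tumour point lies further from wildtype than the SufuKO point for Gad1 (-1.93 and -0.80) and Calb1 (-1.87 and -0.68), whereas both Kitl points lie together at -0.86 and -0.89.

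Set against the mean of Gad1, Gad2 and Slc32a1 on the same array, the 4 interneuron genes parted. All GABAergic neurons use these 3 genes, Purkinje cells among them, so the ratio does not refer to interneurons alone. Pax2 and Tfap2a were also dim, with tumour means of 6.84 and 6.22 beside array medians of 6.72 to 6.79. Gad1 was brighter, at 8.51 in the tumours and 10.44 in wildtype. The part of compression of dim values in these ratios was not tested. The log2 ratio of Pax2 to these GABAergic genes was -0.83, -0.72 and -0.77 in the tumours, -1.26, -1.39 and -1.40 in SufuKO and -1.89, -2.00 and -2.11 in wildtype. It was thus higher in the mutants, with no overlap, by 1.23 in the tumours and 0.65 in SufuKO relative to wildtype. The ratio of Tfap2a was higher too, by 0.76 in the tumours and 0.28 in SufuKO, and that of Tfap2b was lower (-0.37 in the tumours and -0.27 in SufuKO), none with overlap. With all 3 genes in the denominator, Kit's ratio was higher by 0.54 in the tumours without overlap, at 0.82, 0.86 and 0.44 against 0.11, 0.07 and 0.32 in wildtype. In SufuKO Kit's ratio differed by 0.02 from wildtype, and the arrays overlapped (exact 2-sided permutation p = 0.9). In the tumours relative to SufuKO the ratio was higher for Pax2 (0.58), Tfap2a (0.48) and Kit (0.52), none with overlap. It was lower for Tfap2b (-0.11, or -0.0633 without SufuKO replicate 3). The Tfap2b groups did not overlap but nearly touched, with the highest tumour array at -1.244 and the lowest SufuKO array at -1.241. All other exact tests of these ratios gave p = 0.1, the smallest that 3 arrays against 3 allow, so the ratios are a description. Both size and direction depend on the gene in the denominator. Between the mutants the Tfap2b ratio turned to 0.14 with Gad1 alone and 0.044 with Gad2 alone, against -0.50 with Slc32a1 alone. With Slc32a1 alone the differences between the mutants shrank to 0.18 for Pax2, 0.079 for Tfap2a and 0.12 for Kit (exact 2-sided permutation p = 0.3, 0.6 and 0.6). In the tumours against wildtype the Kit ratio shrank to 0.16 with Slc32a1 alone (exact p = 0.5), and the Tfap2b ratio to -0.0632 with Gad1 alone (exact p = 0.5).

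Kitl was set beside Purkinje cells, a source of it in the cerebellum. Endothelial and connective tissue cells also carry Kitl, so its level does not refer to Purkinje cells alone. Of 8 measured Purkinje cell genes 7 fell and 1, Foxp2, rose in the tumours against wildtype (1.54), 7 fell and 0 rose in SufuKO against wildtype, and 7 were lower and 1 higher in the tumours than in SufuKO. The shares of all tested genes that fell were 24.7%, 12.4% and 17.5% in these 3 comparisons, and 22.1%, 13% and 12.2% rose. The Purkinje cell genes had a median log2 difference of -1.69 in the tumours and -0.51 in SufuKO against wildtype, and -1.18 between the mutants. Their summed level was 11.95 to 12.13 in the tumours, 13.02 to 13.09 in SufuKO and 13.59 to 13.68 in wildtype. Between the mutants, where Kitl did not pass the test, Calb1, a calcium buffer, differed by -1.19 and Pcp2, a Purkinje-specific regulator of G proteins, by -1.27 (limma adjusted p = 1.52e-06 and 6.66e-07). The log2 ratio of Kitl to the mean of Calb1, Pcp2, Car8 and Ppp1r17 was -1.30, -1.09 and -1.35 in the tumours, -2.69, -2.66 and -2.60 in SufuKO and -2.34, -2.34 and -2.57 in wildtype. It was higher by 1.17 in the tumours than in wildtype, lower in SufuKO than in wildtype (-0.24), and higher by 1.41 in the tumours than in SufuKO. With all 4 genes the groups did not overlap, and each exact 2-sided permutation test gave p = 0.1, the smallest possible. The highest SufuKO array, -2.604, lay near the lowest wildtype array, -2.572. With Calb1 or Ppp1r17 alone the SufuKO difference shrank to -0.21 and -0.16 (exact p = 0.2 for each). The ratio leaves out Pcp4, Rora and Slc1a6, which fell in the tumours, and Foxp2, which rose. Kitl was dimmer than Calb1, with tumour arrays of 7.35 to 7.72 beside 9.62 to 9.79. The part of compression of dim values in this ratio was not tested.

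**Figure D4:**
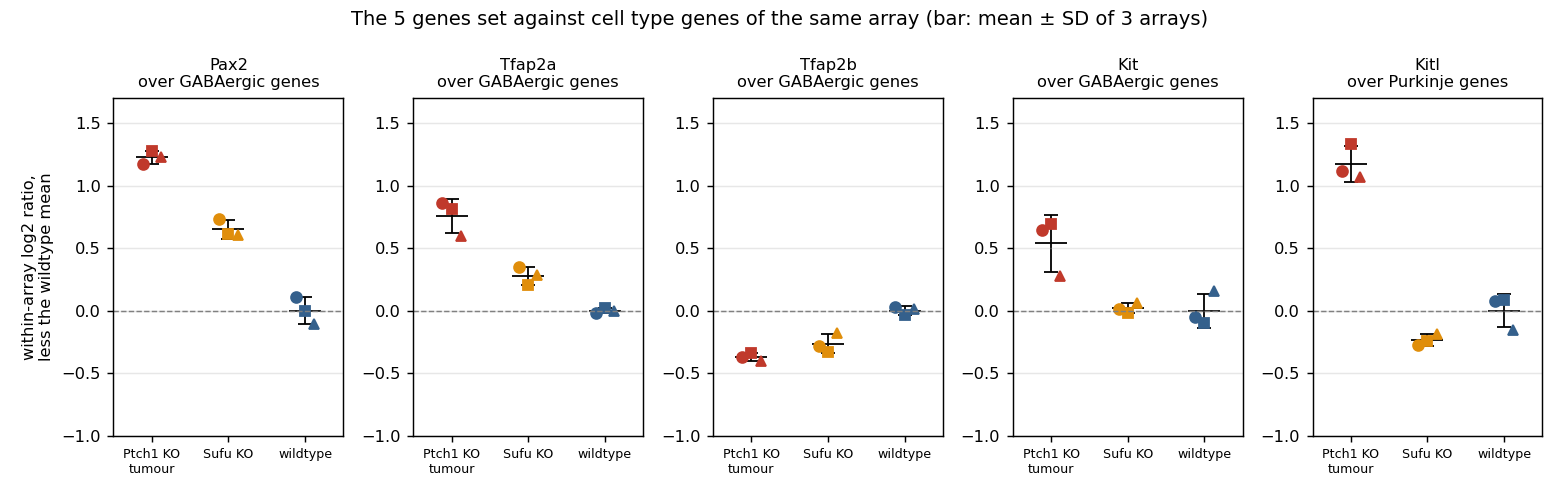
Log2 ratio on each array, less the wildtype mean, of Pax2, Tfap2a, Tfap2b and Kit to Gad1, Gad2 and Slc32a1, and of Kitl to Calb1, Pcp2, Car8 and Ppp1r17, in tumours, SufuKO and wildtype (circle, square and triangle for replicates 1, 2 and 3, bars for mean ± SD). Pax2 stands 1.23 and Kitl 1.17 above wildtype in the tumours, while the ratio of Tfap2b lies below wildtype at -0.37 in the tumours and -0.27 in SufuKO.

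Genes of other cells moved with the groups as well, and their part in the results was not tested. The counts below are against wildtype, where 22.1% of all tested genes rose and 24.7% fell in the tumours. In SufuKO 13% rose and 12.4% fell. All 10 granule neuron progenitor and division genes rose in the tumours and 8 of 10 in SufuKO, where Gli1 and Ccnd1 did not pass the test. Ccnd1, a D-type cyclin, differed by 1.64 in the tumours and 0.31 in SufuKO (limma adjusted p = 4.96e-07 and 0.0889), and some alternatives called the SufuKO value (adjusted p from 0.00429 to 0.226). Mki67, Mycn and Ccnd2 differed by 3.56, 2.80 and 2.50 in the tumours and by 2.63, 1.72 and 2.18 in SufuKO. The list had summed levels of 13.27 to 13.68 in the tumours, 12.63 to 12.72 in SufuKO and 11.02 to 11.25 in wildtype. Of 9 mature granule neuron genes 7 fell, among them Calb2, Etv1 and Slc17a7 (-2.25, -1.78 and -2.00 in the tumours), and 1, Reln, rose in each mutant. The Reln value was 0.18 in the tumours and 0.39 in SufuKO (limma adjusted p = 0.0461 and 0.00141), and 9 of 20 alternatives lost the tumour call (adjusted p up to 0.134). This list had sums of 13.40 to 13.75 in the tumours, 14.15 to 14.27 in SufuKO and 14.58 to 14.71 in wildtype. Of 8 astrocyte and Bergmann glia genes 6 fell, among them Gdf10, Hopx and Slc1a3 (-2.00, -1.37 and -0.82 in the tumours), and 0 rose in each, with sums of 13.51 to 13.76 in the tumours, 13.73 to 13.79 in SufuKO and 14.07 to 14.12 in wildtype. Kit is also carried by mast cells and melanocytes, and Kitl by endothelial and connective tissue cells. Of 8 mast cell genes 5, among them the protease genes Cpa3, Mcpt4 and Cma1, stayed below the filter, and the summed level was 8.25 to 8.27 in the tumours, 8.20 to 8.37 in SufuKO and 8.34 to 8.55 in wildtype. Of the 3 tested, Tpsab1 and Tpsb2 did not pass the test, and Hdc, the histidine decarboxylase, was lower in the tumours and in SufuKO (log2 difference -0.56 and -0.34, limma adjusted p = 0.000704 and 0.0314, the SufuKO value up to 0.130 under the alternatives). Among melanocyte genes Tyr and Tyrp1, which make pigment, stayed below the filter, and the sum was 8.68 to 8.79 in the tumours, 8.63 to 8.77 in SufuKO and 8.87 to 8.88 in wildtype. Genes below the filter are in each sum. The mast cell and melanocyte sums therefore consist largely of dim values and say little about these cells. Of 5 tested melanocyte genes 1, Mitf, fell in SufuKO (-0.49, limma adjusted p = 0.0289, up to 0.114 under the alternatives) and 0 in the tumours, where Dct and Slc45a2 differed by -0.13 and -0.16 (adjusted p = 0.406 and 0.0823, for Slc45a2 as low as 0.0230 under the alternatives). Of 8 endothelial genes 8 fell in the tumours and 5 in SufuKO (medians -0.38 and -0.27), among them Slc2a1, Esam and Tek (-0.75, -0.54 and -0.41 in the tumours), with sums of 10.99 to 11.06 in the tumours, 11.13 to 11.22 in SufuKO and 11.45 to 11.60 in wildtype. Of 9 tested meningeal fibroblast genes 4 fell and 1 rose in the tumours and 7 fell and 0 rose in SufuKO, with sums of 10.74 to 10.92 in the tumours, 10.55 to 10.74 in SufuKO and 11.01 to 11.19 in wildtype. Slc6a13 and Igf2 fell (-0.45 and -0.53) and Lum rose (0.43) in the tumours.

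The genes nearest to each of the 5 over the 9 arrays were taken by the root mean square difference of their log2 profiles, each profile less its own mean, among 15412 genes. Arrays of a group share their genotype, so nearness mostly reflects the 3 group means. For Tfap2b, whose own root mean square about its mean was 0.816, the nearest were Rasgrf1 at 0.0800, a Ras exchange factor, Gad1 at 0.105, Gpd1 at 0.110 and Aifm3 at 0.110. For Kit (own value 0.464) they were Sgpp2 at 0.103, Cep76 at 0.107, Rmdn3 at 0.110 and Slc9a3 at 0.111, and Tfap2a was number 37 in that order. Kitl (0.429) was nearest to Gria3 at 0.101, an AMPA receptor subunit, Rida at 0.115, Septin8 at 0.119 and Lpp at 0.126. Tfap2a (0.357) was nearest to Zbtb7a at 0.0566, Pxn at 0.0626, Shc4 at 0.0658 and Icmt at 0.0660, and Pax2 (0.184) to Abca3 at 0.0394, Alg1 at 0.0431, Mxd4 at 0.0461 and Rab6a at 0.0463. None of the 5 genes was among the 4 nearest to another of them.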

How the data were processed

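Total RNA of 9 samples was measured, each on 1 array, and groups and replicate numbers came from the labels. The authors deposited log2 expression values for 35556 probe sets, and the scale was recognised from the values, which ran from 3.04 to 13.8. How background, normalization and probe summary were done is not given in the sources used here. With 3 arrays per group, their number limits the precision.

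Probe sets were named with the array's annotation table and RefSeq identifiers (21789 with 1 gene, 1621 with several, 12146 unnamed and left out), of which 21698 matched RefSeq and 0 symbols changed. The probe set with the highest mean stood for a gene with several. Genes were tested if, on 3 arrays or more, they exceeded the array's 25th percentile, 16323 of 19938. A limma 3.58.1 model in R 4.3.3 with 1 mean per group was fitted to all 9 arrays, with empirical Bayes moderation and 2-sided p-values adjusted by Benjamini-Hochberg over all tested genes, at a threshold of 0.05. "Rose", "fell" and "called" refer to this threshold. Fold is 2 to the power of the size of the log2 difference, SE is moderated, and SD is over 3 arrays. The fit was tested on simulated data. Within-array ratios are differences of log2 values, compared with exact 2-sided permutation tests. Itpr1 has no single-gene probe set, so 4 Purkinje cell genes entered the Kitl ratio in place of the 5 planned.

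The 5 genes and all gene lists were chosen with earlier results of these data known. From each list the 3 genes with the smallest p were named, further genes could be named where a count was 5 or fewer, and for each of the 5 genes the 4 nearest by pattern. Ptf1a, Dlx5, Gsx2, Pax5, Pax8, Tfap2e, Gli1, Ccnd1 and the examples of Kit signalling, interneuron and Purkinje genes outside this rule were chosen after their values were seen. Alternatives were 9 fits without 1 array and 11 other settings of filter, scaling, variance, covariates and probe set choice. RefSeq promoter windows were searched for 4 motifs on both strands.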

Additional observations from a re-analysis of the deposited data

How the results depend on the processing

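The tests of single genes were recomputed under up to 20 alternatives, 9 of them leaving out 1 array. Every call of the 5 genes kept its direction and its side of the threshold, except that Pax2 in the tumours against SufuKO was not called without Ptch1KO replicate 1 (-0.24, limma adjusted p = 0.0521). Without 1 array that difference ran from -0.36 to -0.24. Kitl in the tumours against SufuKO, never called, turned to -0.034 without SufuKO replicate 1 and -0.083 without Ptch1KO replicate 2, within a range of -0.083 to 0.10. The numbers of genes called rose with array weights to 7418 in SufuKO against wildtype and 8147 between the mutants, against 4150 and 4846, and the estimation of the weights stopped before its tolerance. Deviations of same-numbered samples of different groups had correlations from -0.313 to 0.352, against -0.350 to 0.397 for different numbers. The same-numbered wildtype and SufuKO samples had 0.090, 0.085 and 0.352, while those with the tumours had both signs. With 3 arrays per group such correlations cannot decide whether the numbers pair samples. The labels do not state a pairing, so the numbers were not taken as pairs. With the replicate number as a block 3989, 7520 and 4626 genes were called in SufuKO against wildtype, tumours against wildtype and tumours against SufuKO, and no call of the 5 genes changed. Of 167 values of other named genes 151 kept direction and side. Those that did not include Pax8 in the tumours, which ran from -0.099 to 0.028 without 1 array, and Ptch1 in SufuKO, which turned to 0.037 with sex as a covariate.

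Within-array ratios moved with the gene in the denominator. For Pax2 the difference was 1.53 (Gad1) and 0.85 (Slc32a1) in the tumours against wildtype, and 0.83 (Gad1), 0.72 (Gad2) and 0.18 (Slc32a1) between the mutants. For Tfap2a it was 0.34 (Gad1) and 0.20 (Gad2) in SufuKO, 1.06 (Gad1) and 0.38 (Slc32a1) in the tumours, and 0.73, 0.63 and 0.079 with Gad1, Gad2 and Slc32a1 between the mutants. For Tfap2b it was -0.34 (Gad2) in SufuKO, -0.0632, -0.30 and -0.75 in the tumours with Gad1, Gad2 and Slc32a1, and between the mutants it turned to 0.14 with Gad1 and 0.044 with Gad2, and was -0.50 with Slc32a1. For Kit it was 0.84 (Gad1) and 0.16 (Slc32a1) in the tumours and 0.77 (Gad1) and 0.12 (Slc32a1) between the mutants. For Kitl it was -0.21 (Calb1), -0.38 (Pcp2), -0.19 (Car8) and -0.16 (Ppp1r17) in SufuKO. In the tumours it was 1.01 (Calb1), 0.93 (Pcp2) and 1.57 (Ppp1r17), and between the mutants 1.22 (Calb1) and 1.73 (Ppp1r17). The cause of these changes was not tested.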
